A study of Homo sapiens with 8 samples.

Results

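Vault RNAs are a small family of short non-coding RNAs, and all 4 members that the tables list were taken by symbol: VTRNA1-1, VTRNA1-2, VTRNA1-3 and VTRNA2-1, out of 2709 non-coding RNA features. They were followed across small RNA sequencing libraries from MEC-1, an established B-cell line from chronic lymphocytic leukaemia. The libraries came from exosomes, the small vesicles that MEC-1 cells shed into the medium (n = 5), and from the MEC-1 cells themselves (n = 3), with no drug, knockdown or transgene in either group. Per the labels' protocols, vesicles were pelleted at 100000 g with a 20% iodixanol cushion from bioreactor supernatant. The serum in the medium was cleared of its own vesicles beforehand, except in the upper medium compartment. RNA below 200 nt was then taken with a column kit from vesicles and cells, and 30 ng went into an adapter-ligation kit with 15 PCR cycles. The design text pairs 3 of the exosome samples with cell samples but does not say which, and nothing used here says that replicates came from separate cultures. The p-values therefore reflect sample-to-sample spread alone, and that spread may be technical.

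Vault RNAs are made by RNA polymerase III from promoters that lie partly inside the gene, with box A and box B elements as in tRNA genes. The 3 VTRNA1 RNAs are components of vaults, large hollow cytoplasmic particles built mainly of the major vault protein MVP. VTRNA1-1 is the best studied of them and is known to bind the autophagy receptor p62 (SQSTM1). VTRNA2-1, also called nc886 and once listed as a miRNA precursor, is not a stable part of the vault particle and is known to bind and inhibit the double-stranded RNA kinase PKR. VTRNA1 RNAs are often seen among the short structured RNAs of extracellular vesicles.

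The sequences below, from GENCODE release 29 on the GRCh38 build, are shown because the VTRNA1 RNAs share long stretches with each other and much less with VTRNA2-1, which bears on how reads can be assigned to each. Capitals mark the stretch before the block gttcgagac, which all 4 hold. In the 3 VTRNA1 RNAs the capitals start where their identical 5′ stretch ends, and VTRNA2-1 has a 5′ part and a 3′ tail of its own.
VTRNA1-1: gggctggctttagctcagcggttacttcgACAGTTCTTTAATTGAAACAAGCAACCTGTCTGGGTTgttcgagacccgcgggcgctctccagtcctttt
VTRNA1-2: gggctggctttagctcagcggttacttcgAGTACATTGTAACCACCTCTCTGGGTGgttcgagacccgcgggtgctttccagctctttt
VTRNA1-3: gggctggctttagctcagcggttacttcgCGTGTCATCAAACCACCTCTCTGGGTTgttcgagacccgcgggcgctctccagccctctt
VTRNA2-1: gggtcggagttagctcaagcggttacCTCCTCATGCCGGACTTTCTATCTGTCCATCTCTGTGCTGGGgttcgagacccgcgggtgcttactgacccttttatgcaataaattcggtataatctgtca
VTRNA1-1, VTRNA1-2 and VTRNA1-3 had the same first 29 bases and a further identical stretch of 16 bases, gttcgagacccgcggg, after the capitals. VTRNA2-1 also held this stretch of 16 bases, directly after its own capitals. The capitals ran over 37 bases in VTRNA1-1, 27 in VTRNA1-2, 27 in VTRNA1-3 and 42 in VTRNA2-1. In global alignments VTRNA1-2 and VTRNA1-3 were the closest pair, with 87.8% identity, and VTRNA1-1 had 81.8% identity to VTRNA1-2 and 82.8% to VTRNA1-3. VTRNA2-1 stood further away, with 55.7% identity to VTRNA1-1, 57.8% to VTRNA1-2 and 58.5% to VTRNA1-3. The letters TAGCTCA, taken for box A, started at base 11 of all 4 RNAs. The letters GTTCGANNC, taken for box B, started at base 67 of VTRNA1-1, 57 of VTRNA1-2, 57 of VTRNA1-3 and 69 of VTRNA2-1. Both motifs were searched on both strands, and neither overlapped the other or occurred on the reverse strand. Of 4844 GENCODE transcripts of 80 to 130 nt, 0.846% held TAGCTCA and 0.289% held GTTCGANNC on either strand. A run TTTT, the usual stop signal of RNA polymerase III, was present in VTRNA1-1, VTRNA1-2 and VTRNA2-1 and not within the listed VTRNA1-3, but 63.7% of those transcripts hold such a run on either strand.

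In the coordinates of the files, on GRCh37, the 3 VTRNA1 genes lie in a row on the plus strand of chromosome 5 within 14972 bases. VTRNA1-1 is at chr5:140090860-140090958, VTRNA1-2 at chr5:140098510-140098598 and VTRNA1-3 at chr5:140105743-140105831. VTRNA2-1 is at chr5:135416160-135416286 on the minus strand, 4674573 bases away. Each is counted as a single exon of a non-coding gene, of 99, 89, 89 and 127 nt in that order, and the GENCODE entry of VTRNA2-1 is 128 nt long. Of all 20-base windows, 35.0% of VTRNA1-1, 20.0% of VTRNA1-2, 35.7% of VTRNA1-3 and 2.75% of VTRNA2-1 also occur in another vault RNA entry. At 30 bases 11.4% of VTRNA1-1, 1.67% of VTRNA1-2, 8.33% of VTRNA1-3 and 0% of VTRNA2-1 windows do. At 40 bases no window of any of the 4 does. No 20-base window of any of them occurs in a GENCODE transcript of a gene outside the vault RNA family. Read lengths, and how reads with several possible places were handled, were not stated in the sources used. The copies MIR9-1 and MIR9-3, on different chromosomes, had near-equal counts in every library. In exosomes 1 to 5 these were 232, 396, 1046, 909 and 52 against 232, 395, 1043, 913 and 52. A read shared by VTRNA1 genes may therefore have been counted for more than 1 of them. The split of counts among the 3 VTRNA1 genes is therefore less certain than the contrast between VTRNA1 and VTRNA2-1.

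Vault RNAs took a larger share of the reads in exosomes than in cells. Their summed share of all counts was 0.632%, 0.130%, 0.355%, 0.551% and 0.714% in exosome libraries 1 to 5, against 0.0584%, 0.0342% and 0.0722% in cell libraries 1 to 3. The groups did not overlap, and exosome 2 was the lowest exosome library. The means were 0.477% ± 0.235 (SD, n = 5) in exosomes and 0.0549% ± 0.0193 (SD, n = 3) in cells. These shares rest on 42102 to 195039 vault RNA counts per exosome library and 14998 to 41415 per cell library. Whole libraries held 23353820 to 32436286 counts for exosomes, against 25675636 to 57323598 counts for cells. All values are shares of a library, so the number of vesicles or cells and the amount of RNA in each cannot be told apart.

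In the fit over all 1178 features that passed the filter on low counts, 42.8% of features were called in either direction, 20.5% were called higher and 22.3% lower in exosomes at an adjusted p under 0.05. All 4 vault RNAs were called higher. The libraries of the groups did not overlap for 3 of the 4, against 21.6% of all tested features with every exosome library above every cell library. The median log2 fold change was 4.22 over the 4 vault RNAs and -0.09 over all tested features. Levels below are in CPM, with the library size scaled by TMM, a factor that evens out differences in composition.

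VTRNA1-1 had 3398, 482, 704, 2168 and 10421 CPM in exosomes 1 to 5, against 58.0, 60.6 and 153 CPM in cells 1 to 3. Every exosome library lay above every cell library, and exosome 5 was far above the others while exosomes 2 and 3 were lowest. The mean was 3434 ± 4080 CPM in exosomes (SD, n = 5) and 90.6 ± 54.1 CPM in cells (SD, n = 3). In edgeR's quasi-likelihood test the log2 fold change was 5.24 ± 1.05 (SE), with a 95% interval of 3.03 to 7.46 and a Benjamini-Hochberg adjusted p of 0.00108. This corresponds to a 37.9-fold higher level and to place 39 of the 1178 features by log2 fold change. Without exosome 5 the log2 fold change was 4.25, without exosome 3 it was 5.84 and without cell 3 it was 6.20, and it stayed called each time.

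VTRNA1-3, the third gene of the cluster, had 336, 31.9, 34.0, 121 and 1370 CPM in exosomes 1 to 5, against 4.12, 9.22 and 6.15 CPM in cells 1 to 3. The groups did not overlap, and the libraries ranked much as for VTRNA1-1, with exosome 5 highest and exosomes 2 and 3 lowest. VTRNA1-1 had 7.61 to 20.7 times the counts of VTRNA1-3 in exosome libraries and 6.58 to 24.9 times in cell libraries. How far reads shared with VTRNA1-1 make up the VTRNA1-3 counts was not tested. The mean was 378 ± 567.9 CPM in exosomes (SD, n = 5) and 6.49 ± 2.57 CPM in cells (SD, n = 3). Its log2 fold change of 5.86 ± 1.27 (SE; 95% interval 3.17 to 8.56; edgeR, Benjamini-Hochberg adjusted p = 0.00185) was the highest of the family, 58.3-fold, and place 26 of the 1178 features. The intervals of VTRNA1-3 and VTRNA1-1 overlap widely. Without exosome 5 it was 4.35, without exosome 3 it was 6.54 and without exosome 4 it was 6.53, called each time.

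VTRNA1-2 had 126, 5.88, 51, 150 and 399 CPM in exosomes 1 to 5, against 2.66, 38.9 and 6.34 CPM in cells 1 to 3. Here the groups overlapped: exosome 2 lay below cells 2 and 3, so both of those cell libraries lay within the exosome range. The mean was 146 ± 152 CPM in exosomes (SD, n = 5) and 16.0 ± 19.9 CPM in cells (SD, n = 3). The log2 fold change was 3.20 ± 1.11 (SE; 95% interval 0.85 to 5.54; edgeR, Benjamini-Hochberg adjusted p = 0.0284), or 9.17-fold. It was 4.86 without cell 2. The call did not survive leaving out exosome 5 (log2 2.39, adjusted p = 0.0565), cell 1 (2.60, adjusted p = 0.0910) or cell 3 (3.27, adjusted p = 0.0889), and without exosome 3 it was 3.85.

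VTRNA2-1, the PKR-binding member, had 1374, 681, 1736, 1340 and 1446 CPM in exosomes 1 to 5, against 347, 511 and 633 CPM in cells 1 to 3. All exosome libraries were above all cell libraries, but exosome 2 lay only just above cell 3. The mean was 1316 ± 387 CPM in exosomes (SD, n = 5) and 497 ± 144 CPM in cells (SD, n = 3). The log2 fold change of 1.41 ± 0.53 (SE; 95% interval 0.28 to 2.53; edgeR, Benjamini-Hochberg adjusted p = 0.0424), or 2.65-fold, was the lowest of the family. The call did not survive leaving out exosome 1 (log2 1.44, adjusted p = 0.0752), exosome 5 (1.39, adjusted p = 0.0667), cell 1 (1.1, adjusted p = 0.16) or cell 2 (1.35, adjusted p = 0.0847). It was also lost with scaling by total counts (1.75, adjusted p = 0.0544) and by miRNAs alone (1.43, adjusted p = 0.0840).

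**Figure D1:**
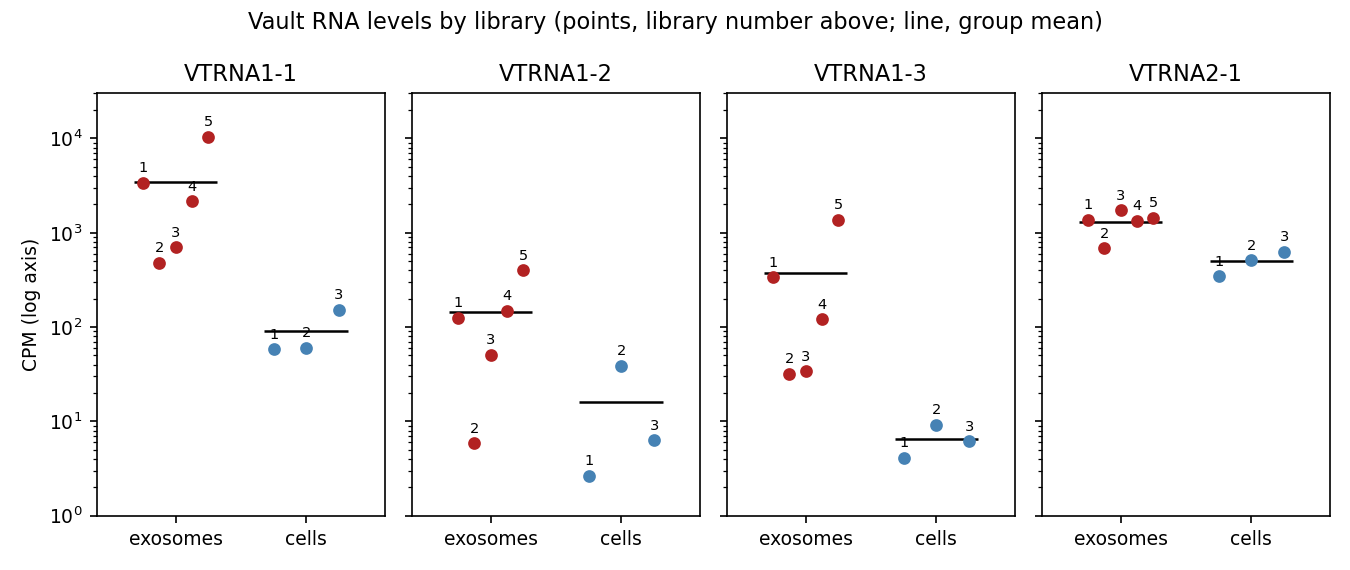
Level of each vault RNA in every library, in CPM on a log axis, with exosome libraries left of cell libraries; points are libraries, numbered by replicate, and bars are group means. The exosome libraries of VTRNA1-1, VTRNA1-3 and VTRNA2-1 sit above the cell libraries, and those of VTRNA1-2 overlap them.

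**Figure D2:**
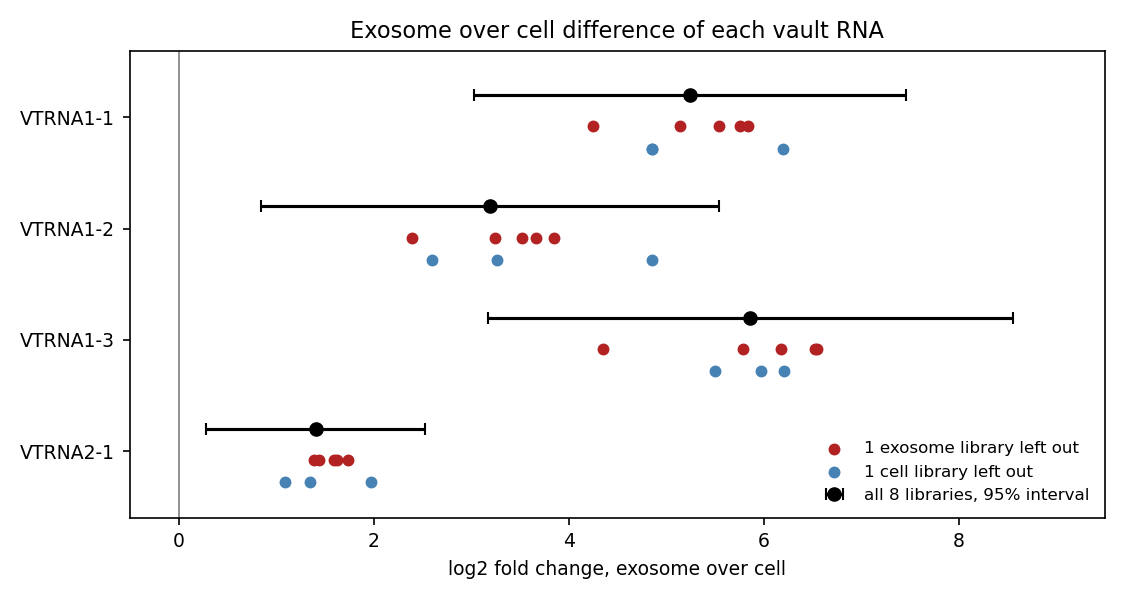
Log2 fold change, exosome over cell, of each vault RNA from the edgeR fit: black points with 95% intervals use all 8 libraries, and red and blue points leave out 1 exosome or 1 cell library in turn. All values lie above 0, from 4.25 to 6.20 for VTRNA1-1 with a library left out and from 1.1 to 1.97 for VTRNA2-1.

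The VTRNA1 RNAs varied more widely among exosome libraries than VTRNA2-1. In CPM the highest exosome library was 21.6 times the lowest for VTRNA1-1, 67.9 times for VTRNA1-2 and 42.9 times for VTRNA1-3, but 2.55 times for VTRNA2-1. On the share of all counts, which has no TMM factor, these ratios were smaller for VTRNA1, at 10.4, 34.3, 20.7 and 3.30 in that order. Among the cell libraries the ratios in CPM were 2.64 for VTRNA1-1, 14.6 for VTRNA1-2, 2.24 for VTRNA1-3 and 1.82 for VTRNA2-1. Mitochondrial RNA took 1.27%, 4.78%, 8.76%, 2.77% and 1.04% of counts in exosomes 1 to 5, against 1.30%, 0.706% and 1.52% in cells 1 to 3. It was highest in exosomes 2 and 3, where VTRNA1-1 and VTRNA1-3 were lowest among the exosomes. Ribosomal RNA took 49.3%, 46.5%, 45%, 37.7% and 72.4% in exosomes 1 to 5, against 30.7%, 26% and 24.6% in cells 1 to 3. It was highest in exosome 5, where the VTRNA1 RNAs were highest in CPM. That library had the lowest TMM factor of the exosomes, 0.524, which raises its CPM. On the share of all counts VTRNA1-2 was highest in exosome 4 (0.0218%, against 0.0209% in exosome 5). The part of either in the vault RNA values was not tested. Without exosomes 2 and 3, a choice made after these shares were seen, VTRNA2-1 had a log2 fold change of 1.51 (adjusted p = 0.0542) and the other 3 stayed called.

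Levels were ordered between members per length, as CPM per kilobase. In exosomes VTRNA1-1 averaged 34691, VTRNA2-1 10359, VTRNA1-3 4253 and VTRNA1-2 1643 CPM per kilobase. In cells the order was VTRNA2-1 with 3911, VTRNA1-1 with 915, VTRNA1-2 with 179 and VTRNA1-3 with 73.0 CPM per kilobase. VTRNA1-1 was above VTRNA2-1 per length in 3 of 5 exosome libraries and in 0 of 3 cell libraries, so these neighbours were not apart within exosomes. VTRNA1-2 was above VTRNA1-3 in 2 of 5 exosome and 2 of 3 cell libraries, and they did not hold an order in either group. VTRNA1-3 was above VTRNA2-1 in 1 of 5 exosome libraries, exosome 5, and in 0 of 3 cell libraries. VTRNA1-1 was above VTRNA1-2 and VTRNA1-3 in all 8 libraries. Among all 2709 features ranked by counts per base, VTRNA1-1 took place 21, 91, 75, 37 and 15 in exosomes 1 to 5, against 248, 271 and 176 in cells 1 to 3. VTRNA2-1 took place 49, 88, 38, 52 and 40 in exosomes, against 111, 108 and 97 in cells.

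The make-up of the family also differed, described without a test because the shares of a library add up to 100%. VTRNA1-1 made up 64.9%, 40.1%, 27.9%, 57.4% and 76.4% of vault RNA counts in exosomes 1 to 5, against 14.1%, 9.79% and 19.2% in cells 1 to 3. VTRNA2-1 made up 26.2%, 56.7%, 68.8%, 35.5% and 10.6% in exosomes, against 84.3%, 82.4% and 79.3% in cells. VTRNA2-1 was the leading vault RNA in all 3 cell libraries and in exosomes 2 and 3, and VTRNA1-1 led in exosomes 1, 4 and 5. VTRNA1-1 averaged 53.3% ± 19.4 in exosomes (SD, n = 5) and 14.4% ± 4.69 in cells (SD, n = 3). VTRNA2-1 averaged 39.6% ± 23.3 in exosomes and 82.0% ± 2.53 in cells. VTRNA1-3 averaged 4.73% ± 3.51 in exosomes and 1.09% ± 0.366 in cells, with the lowest exosome at 1.35% and the highest cell at 1.49%. VTRNA1-2 averaged 2.36% ± 1.27 in exosomes and 2.57% ± 3.21 in cells, where cell 2 alone held 6.27%. The 95% Wilson interval of any of these shares was at most 1.17 percentage points wide. Libraries carried no molecular identifiers, so such intervals cover counting error only.

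**Figure D3:**
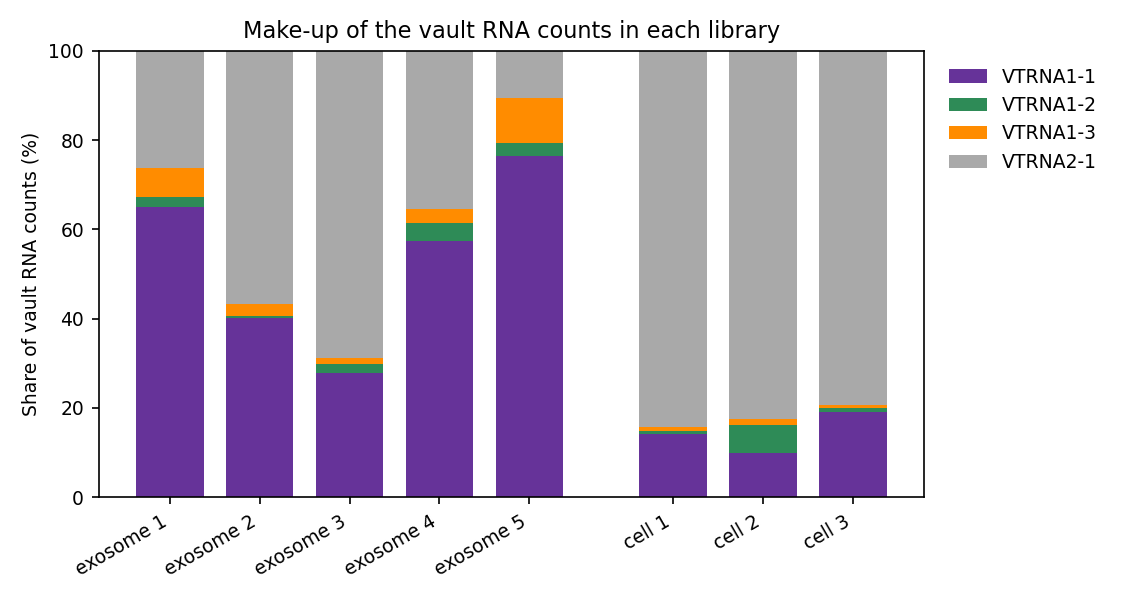
Share of each vault RNA in the vault RNA counts of a library, in percent, with the 5 exosome libraries left of the 3 cell libraries. VTRNA2-1 fills 79.3% to 84.3% of each cell bar and 10.6% to 68.8% of each exosome bar.

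Ratios between members within a library do not depend on library scaling. The ratio of VTRNA1-1 to VTRNA2-1 counts was 2.47, 0.707, 0.405, 1.62 and 7.20 in exosomes 1 to 5, against 0.167, 0.119 and 0.242 in cells 1 to 3. The groups did not overlap, and the log2 ratio was 3.18 higher in exosomes, or 9.04-fold. The two-sided exact permutation test gave p = 0.0357, the smallest that 5 libraries against 3 allow, and 0.107 after Benjamini-Hochberg adjustment over 6 pairs. The ratio of VTRNA1-3 to VTRNA2-1 counts gave the same p-values and did not overlap either, with a log2 ratio 3.15 higher in exosomes, or 8.90-fold. Without exosome 5 that log2 difference was 2.39, and without exosome 3 it was 3.79. None of the 6 pairs passed after adjustment. With that smallest p no pair can pass unless most of the 6 reach it, so this outcome does not measure the size of a difference. Between VTRNA1-1 and VTRNA1-3 the log2 ratio was 3.74 ± 0.60 in exosomes (SD, n = 5) and 3.72 ± 0.96 in cells (SD, n = 3), a difference of 0.02 (exact permutation p = 0.964). The part of shared reads in that ratio was not tested. VTRNA1-1 to VTRNA1-2 differed by 1.47 (exact permutation p = 0.357, adjusted 0.429), VTRNA1-2 to VTRNA1-3 by -1.45 (p = 0.214, adjusted 0.321) and VTRNA1-2 to VTRNA2-1 by 1.71 (p = 0.214, adjusted 0.321). Cell 2 weighed on these: without it the differences were 0.18, -0.66 and 2.75 in that order.

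The vault RNAs were set beside other cytoplasmic RNAs made by RNA polymerase III, from a list chosen with results of these data known. Of 25 listed features 9 had counts and were tested, and edgeR called 7 of the 9 higher in exosomes and 0 lower, with a median log2 fold change of 3.05. None was lower at an unadjusted p under 0.05 either, and DESeq2 called 8 higher and 0 lower. The 4 Y RNAs, which bind the Ro60 protein, were all called, with log2 fold changes of 2.12 for RNY1, 2.63 for RNY3, 3.95 for RNY4 and 4.71 for RNY5. The 3 genes of 7SL, the RNA of the signal recognition particle, were called with 3.22 for RN7SL1, 3.05 for RN7SL2 and 3.97 for RN7SL3, which are near-identical copies whose reads may be shared. BCYRN1 (2.06, adjusted p = 0.0531) and the 5S rRNA gene RNA5S9 (-0.36, adjusted p = 0.668) were not called. The BCYRN1 feature is 13458 nt long, so its counts may come from other RNAs of that interval. VTRNA1-1 and VTRNA1-3 had larger estimates than any of these 9, and VTRNA2-1 a smaller one than all but RNA5S9, without a test between genes. Of the nuclear RNAs made by this polymerase, RN7SK, a part of the 7SK particle that holds back transcription elongation, was lower in exosomes (log2 -5.39, adjusted p = 6.17e-05) and RNU6ATAC was not called (-1.02, adjusted p = 0.261). Of the tRNA-length features, 402 were tested, with 127 higher (31.6%, against 20.5% of all features), 76 lower (18.9%, against 22.3%) and a median of 0.42.

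VTRNA2-1 was the vault RNA whose ratio to the Y RNAs and to 7SL lay lower in every exosome library than in any cell library, although neither difference passed after adjustment. The ratio of VTRNA2-1 to 7SL counts was 1.04, 0.777, 1.89, 2.09 and 1.34 in exosomes 1 to 5, against 3.36, 6.12 and 4.78 in cells 1 to 3. The groups did not overlap, and the log2 ratio was 0.42 ± 0.59 in exosomes (SD, n = 5) and 2.21 ± 0.44 in cells (SD, n = 3), a difference of -1.79. Against the Y RNAs the difference was -1.94, again without overlap. Both had a two-sided exact permutation p of 0.0357, the smallest possible, and an adjusted p of 0.143 over 8 ratios. No ratio can pass after adjustment here unless most of the 8 reach that smallest p. VTRNA1-1 differed by 1.24 against the Y RNAs and by 1.39 against 7SL (exact permutation p = 0.25, adjusted 0.5 in both), with overlapping groups. VTRNA1-3 differed by 1.22 (exact permutation p = 0.429, adjusted 0.571) and 1.37 (p = 0.357, adjusted 0.571), and VTRNA1-2 by -0.23 (p = 0.964) and -0.08 (p = 1).

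**Figure D4:**
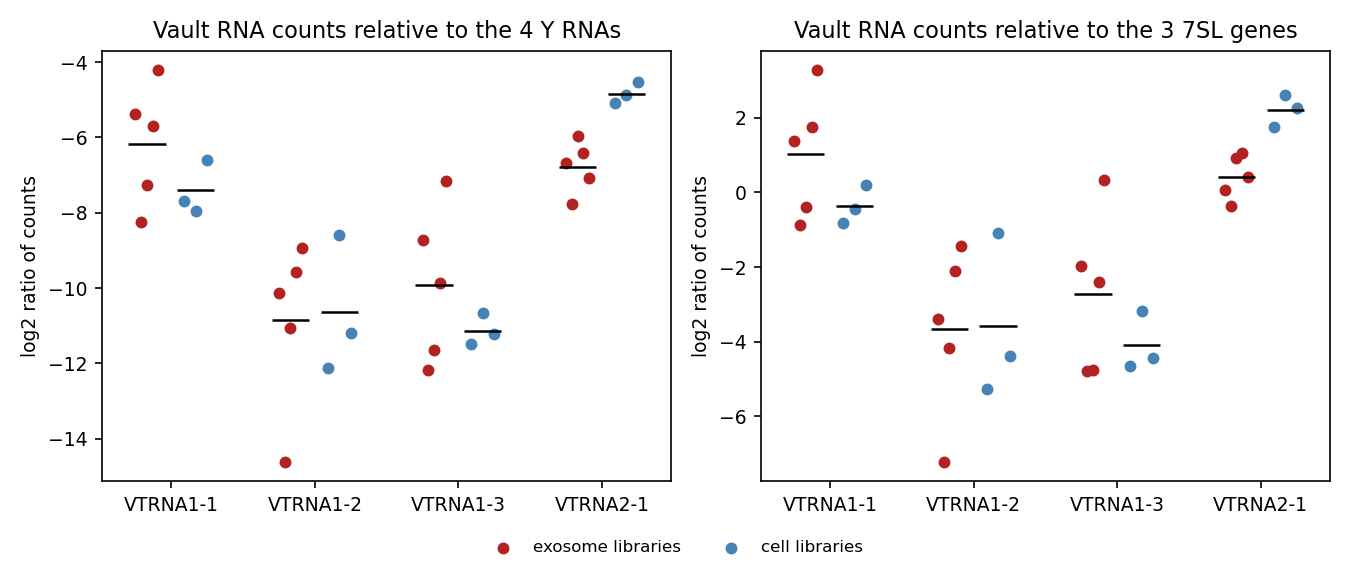
Log2 ratio of each vault RNA's counts to the summed counts of the 4 Y RNAs (left panel) and of the 3 7SL genes (right panel) in every library, exosomes left of cells, with bars at group means. VTRNA2-1 lies lower in all exosome libraries than in any cell library, and the other 3 overlap.

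Few other features near the vault genes were measured. Of 8 features on chromosome 5 within 2 Mb of a vault RNA gene, 5 were tested, of which 0 were called higher and 2 lower in exosomes, by edgeR, DESeq2 and limma-voom alike, and 0 were higher at an unadjusted p under 0.05 in any of these tools. Over all features 20.5% were called higher and 22.3% lower. Those lower were SNORA74 (log2 -4.14, adjusted p = 0.00185) and SNORA74A (log2 -2.05, adjusted p = 0.00537), similar H/ACA snoRNAs whose reads may be shared. MIR3661 (1.69), MIR4461 (0.07) and MIR874 (-0.99) were not called, although every exosome library of MIR3661 lay above every cell library, at 9 to 16 counts in exosomes and 2 to 7 counts in cells. The vault RNA pseudogenes VTRNA2-2P and VTRNA3-1P and the older entry MIR886 had no entry in the tables used.

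The features whose profiles over the 8 libraries lay nearest to each vault RNA were found by the root mean square difference of centred log2(CPM + 1) values among 452 features. For VTRNA1-1 these were TSIX (0.485), LINC00174 (0.665) and RP11-343N15.1 (0.726), and VTRNA1-3 lay at 0.626. For VTRNA1-3 they were RP11-343N15.1 (0.851), TSIX (0.917) and LINC00174 (1.07). The log2 fold changes of these features were 5.08 for TSIX, 5.94 for LINC00174 and 8.83 for RP11-343N15.1. LINC00174 had a mean of 42.0 CPM over the exosome libraries, against 0.671 CPM over the cell libraries, and for RP11-343N15.1 the means were 30.7 CPM in exosomes, against 0.0596 CPM in cells. Both passed the count minimum through the exosome libraries, and adding 1 flattens such low cell values, so their nearness depends on that constant. All 3 are long features of 37027 nt (TSIX), 5627 nt (LINC00174) and 2649 nt (RP11-343N15.1), and TSIX lies antisense to another RNA while the strand used in counting was not stated. For VTRNA1-2 the nearest were TINCR (1.19), MIR3118-3 (1.24) and RP11-343N15.1 (1.25). Their cell means were 0.0954, 0.0193 and 0.0596 CPM in that order, and their log2 fold changes were 6.30, 7.93 and 8.83, against 3.20 for VTRNA1-2. The same limit holds for them, and no likeness to VTRNA1-2 is read from these distances. For VTRNA2-1 they were SNORA36B (0.391), MIR320A (0.417) and MIR320B2 (0.487), and VTRNA1-1 lay at 1.92 from it.

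Markers of the labels and of other RNA sources were read in the same fit, in which 20.5% of all features were called higher and 22.3% lower. Of 8 B-lymphocyte miRNAs 4 had an entry, and 0 were called by edgeR, DESeq2 or limma-voom. At an unadjusted p under 0.05, edgeR had 0 and DESeq2 1, and their summed level was 615 to 996 CPM in exosomes and 346 to 903 CPM in cells. Of 27 miRNAs of other tissues 19 had an entry and 17 were tested, with 6 higher and 0 lower in exosomes by edgeR (8 and 1 at an unadjusted p under 0.05). DESeq2 called 8 higher and 0 lower (8 and 3 unadjusted), and limma-voom 5 higher and 0 lower (6 and 3 unadjusted). Their summed level was 182 to 354 CPM in exosomes and 157 to 196 CPM in cells. The liver miRNA MIR122 had 647, 1237, 5193, 1278 and 1002 counts in exosomes 1 to 5, against 49, 60 and 22 in cells 1 to 3, and it was highest in exosome 3, where VTRNA1-1 and VTRNA1-3 were second lowest among the exosomes. The muscle miRNA MIR206 had 0, 3, 10, 0 and 0 counts in exosomes 1 to 5, against 0 in each cell library. The other muscle miRNA with an entry, MIR1-1, had 7, 2, 17, 2 and 24 counts in exosomes, against 2, 0 and 3 in cells, and neither was tested. Of the epithelial members, MIR203 was called higher in exosomes (log2 3.83, edgeR adjusted p = 0.0173). It had 18, 10, 24, 33 and 63 counts in exosomes 1 to 5, against 6, 0 and 5 in cells 1 to 3. The other epithelial and neural members that were tested had log2 fold changes below 0 and were not called. These were MIR200A (-0.71), MIR200B (-1.26), MIR200C (-0.08), MIR9-1 (-1.28) and MIR9-3 (-1.27). For MIR200A every exosome library lay below every cell library. The 5 nuclear RNAs summed to 294 to 562 CPM in exosomes and 1614 to 18774 CPM in cells. Most of the cell sum was RN7SK on average, with 9524 ± 8450 CPM in cells (SD, n = 3). RN7SK (log2 -5.39), SCARNA9 (-2.83) and SNORD13 (-1.84, with overlapping groups) were the 3 called lower. SNORD3A (0.20) and RNU6ATAC (-1.02) were not called. The part of these RNA sources in the vault RNA values was not tested.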

How the data were processed

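Per the file headers, each of the 8 deposited tables holds unnormalised featureCounts read counts. Trimming with cutadapt 1.1, mapping with STAR, DESeq2 1.8.2 and the GRCh37 (hg19, hs37d5) build come from the submitters' processing notes. Strand and multi-mapping settings were not given in the sources used here. The 4 vault RNAs, the lists and the rule for named genes (each vault RNA, its 3 nearest profiles, polymerase III and chromosome 5 list members) were chosen with earlier results of these data known.

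All features were fitted with edgeR 4.0.16's quasi-likelihood test (robust, R 4.3.3) on counts with TMM factors and the default low-count filter (minimum 10), with group as the only term. Benjamini-Hochberg adjustment ran over all 1178 tested features, and calls were made under 0.05. The SE was the size of the log2 fold change over the square root of F. Ratios used a pseudocount of 0.5 and an exact permutation test (SciPy 1.17.1). Sequences were aligned with Biopython 1.88. DESeq2 1.42.0, limma-voom 3.58.1, other scalings, filters, a replicate block and leaving out each library were the alternatives. The main edgeR fit was tested on simulated counts and the permutation test on made-up values. The alternative fits were not tested in this way.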

Additional observations from a re-analysis of the deposited data

Results flagged for a closer look

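The level of VTRNA1-3 in exosome 5, 1370 CPM, stood apart from the other exosome libraries (31.9 to 336 CPM). Its gap to the next library was 0.773 of the group's range, above the critical value of 0.710 for 5 libraries. On the share of all counts, where exosome 5 held 0.0717%, the gap was 0.456 and did not stand apart. Exosome 5 had the lowest TMM factor of the exosome libraries, 0.524. Of 26 sets of values 1 stood apart, and chance alone gives about 1 in 20.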

How the results depend on the processing

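Each fold change was recomputed under 20 alternatives and stayed positive in all 20. VTRNA1-1 (log2 3.65 to 6.20) and VTRNA1-3 (3.39 to 6.54) stayed called in all 20, VTRNA1-2 in 15 (1.98 to 4.86) and VTRNA2-1 in 11 (1.1 to 1.97). VTRNA2-1 was not called with total count scaling (1.75) or miRNA scaling (1.43), or without exosomes 2 and 3 (1.51). Leaving out 1 library at a time gave 2.39 to 4.86 for VTRNA1-2 and 1.1 to 1.97 for VTRNA2-1. With the replicate block on exosomes 1 to 3 and cells 1 to 3, VTRNA1-2 was 2.59 (adjusted p = 0.165), VTRNA2-1 1.35 (adjusted p = 0.119), VTRNA1-1 3.65 and VTRNA1-3 3.39. The same 6 libraries with no block gave 1.98 for VTRNA1-2 (adjusted p = 0.137) and 1.41 for VTRNA2-1 (adjusted p = 0.0823), neither called. The block called 357 features, against 399 without it and 504 in the full fit. With each feature's group mean subtracted from its log2 CPM, same-numbered libraries correlated at 0.003, -0.110 and 0.293. Exosome 4 and cell 1, with unlike numbers, correlated at 0.302, so these values cannot settle which libraries pair. The numbers were not taken as pairs because the design text does not say which samples pair. The cause of each lost call was not tested. Scaling moved the median of all features, -0.09 as reported, to 0.19 with total counts, 0.25 with the upper quartile and 0.29 without rRNA. Relative to that median VTRNA2-1 was 1.41 to 1.56 and VTRNA1-1 4.88 to 5.35 over 6 scalings. Leaving out 1 library reversed 3 small differences of log2 ratios, none past a threshold: VTRNA1-1 to VTRNA1-3 ran from -0.48 to 0.48, VTRNA1-2 to the Y RNAs from -0.97 to 0.79 and VTRNA1-2 to 7SL from -0.92 to 1.16. Other log2 ratios also moved by over 1.5-fold: VTRNA1-1 to VTRNA1-2 ran from 0.18 to 2.15, VTRNA1-2 to VTRNA2-1 from 1.09 to 2.75, and without exosome 5 VTRNA1-3 was 0.53 to the Y RNAs and 0.60 to 7SL. So did VTRNA1-2 to VTRNA1-3, from -2.01 to -0.66, and VTRNA1-3 to VTRNA2-1, from 2.39 to 3.79. The differences of VTRNA1-1 ran from 0.75 to 1.76 to the Y RNAs and from 0.83 to 1.86 to 7SL. VTRNA1-2 is the thinnest member, with 97 to 1168 counts per cell library.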
